A study of Mus musculus with 16 samples.

Results

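The 9 genes described here set how much actin is free as monomer and what happens at the ends of actin filaments. They are the profilins Pfn1 and Pfn2, the beta-thymosins Tmsb4x and Tmsb10, gelsolin (Gsn), the subunits of capping protein (Capza1, Capza2 and Capzb) and the macrophage capping protein Capg. They were chosen by symbol. All 9 were present among the 38087 gene rows of experiment A and the 54232 rows of experiment B. Experiment A held whole-heart RNA of C57BL/6 females aged 86 weeks, in 3 wild-type (wt) and 3 CAP2 -/- libraries. Experiment B held whole-heart RNA of C57BL/6 mice aged 13 weeks, all carrying Loxp/Loxp alleles. In it, 5 libraries were Cre- (3 female, 2 male) and 4 were Cre+ (3 female, 1 male). The Cre transgene is driven by the Myh6 promoter, which is active in cardiomyocytes. No library with Cre but without Loxp alleles was analysed here, so Cre and the loss of Cap2 cannot be told apart in experiment B.

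Actin exists as free monomers and as filaments, and filaments grow mainly at one end, the barbed end. Thymosins hold monomers in reserve, profilins hand monomers to growing barbed ends, capping protein closes barbed ends, and gelsolin cuts filaments and caps the new ends. In heart muscle, capping protein anchors the thin filaments at the Z-disc, while CAP2, the protein removed in this study, binds monomers and helps to take filaments apart. Free monomers also hold back the MRTF cofactors of the transcription factor SRF, whose targets include actin genes.

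The targeted gene followed the labels. Cap2 stood at 197, 217 and 228 CPM (counts scaled to the size of the library) in the wild-type libraries and at 8.34, 16.2 and 12.0 CPM in the CAP2 -/- libraries. In experiment B its normalized read counts were 33, 60, 80 and 87 in the Cre+ libraries, below all 5 Cre- libraries, whose median was 342. Totals per library ran from 10750175 to 27440478 estimated counts in experiment A, and the members with the fewest, Tmsb10 and Capg, rested on 126.0 to 281.93 and 162.27 to 328.5 estimated counts per library. The depth of experiment B is unknown, and mitochondrially encoded genes took 30.4% to 69.5% of the values in the Cre- and 23.0% to 52.7% in the Cre+ libraries. Cre- replicate 4, a male, stood apart from the other controls in many members. The members' fold changes in experiment B are given with and without it.

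In experiment A, none of the 9 members passed edgeR's quasi-likelihood test at an adjusted p of 0.05, against 1.35% of the 16297 genes tested. DESeq2 called 0 of 9 (2.47% of its tested genes), and the authors' deposited table gives 0 of 9 an adjusted p under 0.05 (2.61% of its genes). At an unadjusted p under 0.05 there were 2 of 9, Capza2 and Capg, against 10.4% of all genes. The 5 filament-end genes (Gsn, Capza1, Capza2, Capzb, Capg) all had a fitted fold change above 0, with a median log2 value of 0.168. Of the 4 monomer binders 1 was above 0 and the median was -0.089. Over all genes tested the median was 0.006 and 50.9% were above 0. All 3 CAP2 -/- libraries lay above all 3 wild-type libraries for 4 of 9 members (Tmsb4x, Capza2, Capzb and Capg), against 7.60% of all genes, and below them for 0 of 9; in either direction this was so for 15.6% of all genes.

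In experiment B, none of the 9 members passed the limma test at an adjusted p of 0.05, against 1.88% of the 12141 genes tested. At an unadjusted p under 0.05 there were 4 of 9 (Pfn1, Tmsb10, Capzb and Capg), against 22.1% of all genes. Fold changes were above 0 for 7 of 9 members and below 0 for Capza1 and Capza2, with a median log2 value of 0.513. Over all genes tested the median was -0.116 and 41.5% were above 0. Scaling by the trimmed mean of M values (TMM) moved that median to -0.013, and moved each member up with it. All 4 Cre+ libraries lay above all 5 Cre- libraries for 3 of 9 members (Pfn1, Capzb and Capg), against 3.87% of all genes, and below them for 0 of 9; in either direction this was so for 8.66% of all genes.

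**Figure D1:**
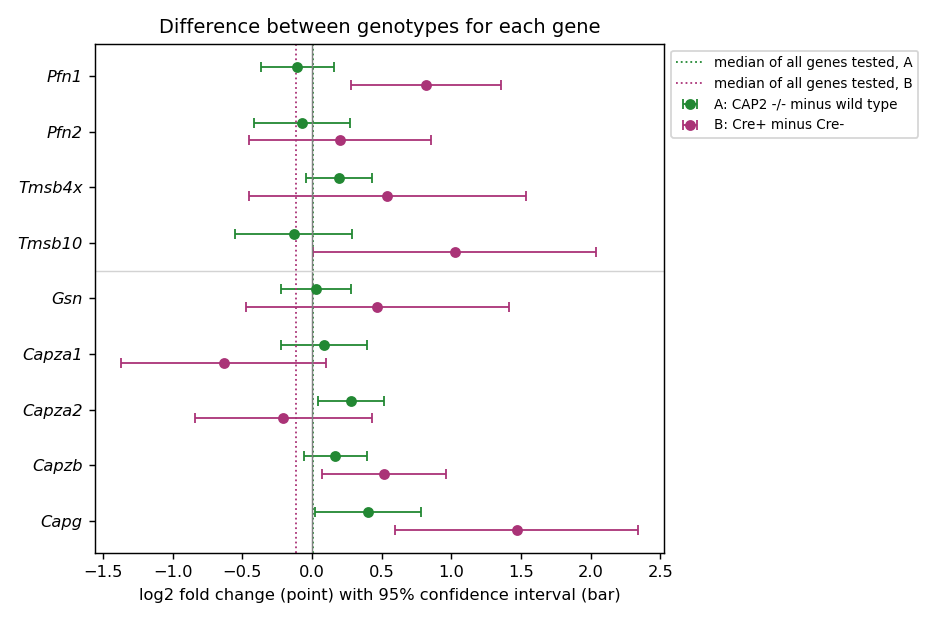
Log2 fold change between genotypes (x axis, point) with its 95% confidence interval (bar) for each gene (y axis), in experiment A (green) and experiment B (purple); dotted lines mark the median of all genes tested, 0.006 in A and -0.116 in B, and the grey line parts monomer binders (above) from filament-end genes. The intervals of Capza2 and Capg in A and of Pfn1, Tmsb10, Capzb and Capg in B lie above 0, and none of these passed the test over all genes.

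Pfn1, at chr11:70651850-70654644 on the minus strand, encodes the profilin found in nearly all cells. Its CPM were 88.2, 85.0 and 72.8 in wild type and 69.8, 76.5 and 82.2 in CAP2 -/- hearts. These ranges overlapped, and the log2 fold change was -0.11 (95% interval -0.37 to 0.16, n = 3 against 3; edgeR adjusted p = 0.846). In experiment B the normalized counts were 778, 913, 719, 459 and 853 in Cre- and 1098, 1341, 1388 and 1400 in Cre+ hearts. Every Cre+ library was above every Cre- library. The fold change was 1.76 (95% interval 1.22 to 2.55, n = 5 against 4), yet the limma adjusted p over the whole table was 0.102. Without Cre- replicate 4, the lowest library, the log2 value went from 0.82 to 0.68, with an adjusted p of 0.0566.

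Pfn2, at chr3:57841895-57848079 on the minus strand, is the profilin best known from neurons. It had 32.2, 27.7 and 42.9 CPM in wild type and 28.6, 33.4 and 35.7 CPM in CAP2 -/- hearts. The CAP2 -/- libraries lay within the wild-type range, with a log2 fold change of -0.07 (95% interval -0.42 to 0.27; edgeR adjusted p = 0.927). Experiment B gave it 59, 67, 120, 225 and 115 normalized counts in Cre- hearts and 90, 99, 122 and 137 in Cre+ hearts. The groups overlapped widely, with Cre- replicate 4 highest, and the log2 fold change was 0.20 (95% interval -0.45 to 0.86; limma adjusted p = 0.712), or 0.36 without that library. The level of Pfn2 relative to Pfn1, per kilobase of exon, was 0.260 to 0.470 in wild type and 0.327 to 0.348 in CAP2 -/- hearts. In experiment B that ratio was 0.0498 to 0.333 in Cre- and 0.0501 to 0.0665 in Cre+ hearts, again overlapping; without Cre- replicate 4 the highest Cre- value was 0.113.

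The thymosins are short peptides, annotated at 44 residues for Tmsb10-203 and for Tmsb4x-201, and their genes differed widely in level. In experiment A, however, 57.0% to 74.8% of Tmsb4x was assigned to Tmsb4x-203, annotated at 50 residues, and 23.4% to 40.9% to Tmsb4x-201. The last 135 coding bases of Tmsb4x-203, of 153, are those of Tmsb4x-201, so the stretch that both transcripts share is printed beside that of Tmsb10, to be compared base by base. Of these 135 coding bases 40 differ (70.4% identical), spread along the whole sequence. The 2 sequences, read from GENCODE M21 transcripts on the minus strand of the same build (mm10), are printed 5′ to 3′ with the differing bases in capitals; Tmsb4x is coded within chrX:167207501-167208036 and Tmsb10 within chr6:72957618-72958012, each over more than one exon.
Tmsb4x: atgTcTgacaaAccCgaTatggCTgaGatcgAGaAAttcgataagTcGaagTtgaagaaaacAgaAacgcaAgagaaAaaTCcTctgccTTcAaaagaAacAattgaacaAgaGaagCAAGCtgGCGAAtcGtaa
Tmsb10: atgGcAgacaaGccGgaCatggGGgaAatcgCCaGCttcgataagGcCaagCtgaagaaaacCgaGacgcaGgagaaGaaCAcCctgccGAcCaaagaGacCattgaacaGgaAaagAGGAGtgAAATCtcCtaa

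Tmsb4x, the main monomer store of many cells, had 260.2, 256.2 and 271.7 CPM in wild type and 333.9, 287.3 and 277.7 CPM in CAP2 -/- hearts. All 3 CAP2 -/- libraries were above the wild-type range, replicate 1 most. The log2 fold change was 0.19 (95% interval -0.05 to 0.43; edgeR adjusted p = 0.620). In experiment B its normalized counts were 2656, 5826, 6253, 1317 and 5042 in Cre- and 5730, 3832, 5393 and 7488 in Cre+ hearts. The Cre- libraries fell into high and low values, replicates 1 and 4 being low, and the Cre+ libraries overlapped the high ones. The log2 fold change of 0.54 (95% interval -0.45 to 1.53; limma adjusted p = 0.498) was 0.22 without Cre- replicate 4 and 1.06 with the mitochondrial share as a covariate, a fit added after the data were seen.

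Tmsb10 had 10.2, 15.0 and 15.5 CPM in wild type and 11.4, 11.7 and 13.7 CPM in CAP2 -/- hearts. The CAP2 -/- libraries lay within the wild-type range, with a log2 fold change of -0.13 (95% interval -0.56 to 0.29; edgeR adjusted p = 0.890). In the younger hearts of experiment B there were 187, 411, 545, 63 and 267 normalized counts in Cre- and 523, 410, 676 and 518 in Cre+ hearts for Tmsb10. The Cre+ libraries were at or above the upper Cre- values, with overlap. The fold change was 2.03 (95% interval 1.00 to 4.12; limma adjusted p = 0.223), and its log2 value went from 1.02 to 0.68 without Cre- replicate 4 and to 1.51 with that covariate. Per kilobase, Tmsb10 stood at 0.0367 to 0.0630 of the level of Tmsb4x over the 6 libraries of experiment A and at 0.0514 to 0.135 over the 9 of experiment B, and the genotypes overlapped in both.

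Gelsolin (Gsn), at chr2:35256380-35307892 on the plus strand, had 2018, 1606 and 1751 CPM in wild type and 2028, 1733 and 1717 CPM in CAP2 -/- hearts. The groups covered the same range. The log2 fold change was 0.03 (95% interval -0.22 to 0.28; edgeR adjusted p = 0.967). Normalized counts in experiment B were 7763, 9940, 16447, 3873 and 16581 in Cre- and 14346, 12326, 10254 and 17647 in Cre+ hearts. The Cre- libraries spread more than the Cre+ ones and enclosed 3 of the 4. The log2 fold change was 0.47 (95% interval -0.48 to 1.42; limma adjusted p = 0.539) and was 0.15 without Cre- replicate 4 and 0.99 with the mitochondrial share as a covariate.

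Gelsolin is made as a secreted and as a shorter intracellular protein from different first exons. In experiment A, where rows per transcript and per exon were deposited, 90.6% to 93.4% of Gsn was assigned to the transcript coding for 780 residues, the secreted form. Its first exon of 222 bases, however, held 2.71% to 7.98% of the median read density of the other 16 exons of that transcript. It was 6.82%, 7.98% and 5.72% in wild type and 5.82%, 2.71% and 4.62% in CAP2 -/- hearts, ranges that overlapped. The deposited rows name 4 Gsn transcripts and GENCODE M21 names 7, among them one of 731 residues, whose reads were not analysed separately here. The assigned share can therefore not be read as the share of the secreted form.

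Capg, at chr6:72544391-72562983 on the plus strand, is a gelsolin relative that caps barbed ends without cutting filaments and is abundant in macrophages. It had 11.8, 14.9 and 10.7 CPM in wild type and 17.5, 15.5 and 16.2 CPM in CAP2 -/- hearts. Every CAP2 -/- library was above every wild-type library, by a narrow gap between wild-type replicate 2 and CAP2 -/- replicate 2. The fold change was 1.32 (95% interval 1.02 to 1.72; edgeR adjusted p = 0.439). Of its counts in experiment A, 45.7% to 73.3% were assigned to the main protein-coding transcript of 349 residues and much of the rest to transcripts with a retained intron.

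In experiment B, Capg had 83, 109, 196, 33 and 127 normalized counts in Cre- and 220, 309, 365 and 251 in Cre+ hearts. Every Cre+ library was above every Cre- library, Cre- replicate 3 lying closest. The fold change was 2.77 (95% interval 1.51 to 5.07), the largest of the 9 members in the experiment, with a limma adjusted p of 0.0823. Without Cre- replicate 4 the log2 value went from 1.47 to 1.19 and the adjusted p to 0.0449, and without Cre- replicate 5 they were 1.67 and 0.0316. Without Cre+ replicate 4, the only male of its group, they were 1.26 and 0.322.

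Capping protein is a dimer of an alpha and a beta subunit. Capza1, at chr3:104822779-104864505 on the minus strand, codes for one of the alpha subunits and had 26.1, 26.4 and 27.7 CPM in wild type and 23.9, 32.2 and 28.8 CPM in CAP2 -/- hearts. The CAP2 -/- libraries lay on both sides of the wild-type range (log2 fold change 0.09, 95% interval -0.22 to 0.39; edgeR adjusted p = 0.897). Its normalized counts in experiment B were 29, 57, 70, 83 and 43 in Cre- and 36, 39, 26 and 33 in Cre+ hearts. The Cre+ libraries were at the low end and overlapped Cre- replicate 1 (log2 fold change -0.63, 95% interval -1.37 to 0.10; limma adjusted p = 0.285; -0.50 without Cre- replicate 4). Capza1 overlaps St7l on the other strand, and the strand setting of the counting is not given in the sources used here, so reads of the 2 genes may not be told apart.

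Capza2, at chr6:17636234-17666972 on the plus strand, codes for the more abundant alpha subunit; its coding sequence is 76.9% identical to that of Capza1 over 861 bases. It had 120.7, 128.6 and 135.9 CPM in wild type and 155.1, 164.4 and 149.0 CPM in CAP2 -/- hearts. The groups did not overlap, and the fold change was 1.22 (95% interval 1.03 to 1.43; edgeR adjusted p = 0.350). The authors' deposited table gives it a log2 fold change of 0.28 with an adjusted p of 0.309. In experiment B it had 315, 335, 468, 1049 and 508 normalized counts in Cre- and 291, 383, 488 and 425 in Cre+ hearts. Apart from Cre- replicate 4 at the top, the groups covered about the same range, with a log2 fold change of -0.21 (95% interval -0.84 to 0.43; limma adjusted p = 0.697) that was -0.03 without that library and 0.05 in females alone.

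Capzb, at chr4:139192899-139291818 on the plus strand, codes for the beta subunit. It had 248.3, 282.8 and 255.3 CPM in wild type and 298.1, 297.6 and 287.5 CPM in CAP2 -/- hearts. All CAP2 -/- libraries were above the wild-type ones and lay closer together (log2 fold change 0.17, 95% interval -0.06 to 0.40; edgeR adjusted p = 0.660). In experiment B it had 926, 787, 877, 1002 and 1102 normalized counts in Cre- and 1121, 1335, 1497 and 1304 in Cre+ hearts. The groups did not overlap, although Cre- replicate 5 came close to Cre+ replicate 1. The fold change was 1.43 (95% interval 1.05 to 1.94; limma adjusted p = 0.178), a log2 value that was 0.51 both with all libraries and without Cre- replicate 4.

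Capzb makes beta subunits that differ at their carboxyl end: muscle uses the form with an extra exon, which is placed at the Z-disc, and other cells mainly the form without it. The exon has 113 bases and lies at chr4:139288861-139288973. It carries the end of the reading frame of the 277-residue muscle form, printed below from GENCODE M21 (mm10, plus strand, chr4:139288861-139288963) with the stop codon in capitals. Where it is skipped, reading goes on into the last exon, of which the first 30 bases are printed (chr4:139291003-139291032). The transcript of the muscle form also holds this last exon, after its stop codon. Only the 113-base exon therefore tells the transcripts apart.
Capzb with the exon: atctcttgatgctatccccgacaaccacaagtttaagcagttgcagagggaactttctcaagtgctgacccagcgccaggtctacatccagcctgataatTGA
Capzb without the exon: gtctgtgcagacgtttgcagacaaatcaaa

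In experiment A, transcripts with the exon made up 88.6%, 85.9% and 90.8% of the Capzb assigned to transcripts that reach the last exon in wild type and 91.7%, 86.5% and 88.5% in CAP2 -/- hearts. The read density of the exon relative to the 77-base exon before it was 1.01, 1.06 and 0.853 in wild type and 0.928, 0.954 and 0.976 in CAP2 -/- hearts. These shares add up 2 transcripts with the exon. Capzb-203, which codes for the muscle form, took 35.0% to 57.7% of all Capzb, and Capzb-210, annotated as a processed transcript with no coding sequence, 11.2% to 39.9%. Capzb-210 exceeded Capzb-203 in wild-type replicate 2 and CAP2 -/- replicate 2, so the share with the exon cannot be read as the share of mRNA for the muscle form. The share with the exon and the density ratio overlapped between the genotypes, and no test was made on them.

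**Figure D2:**
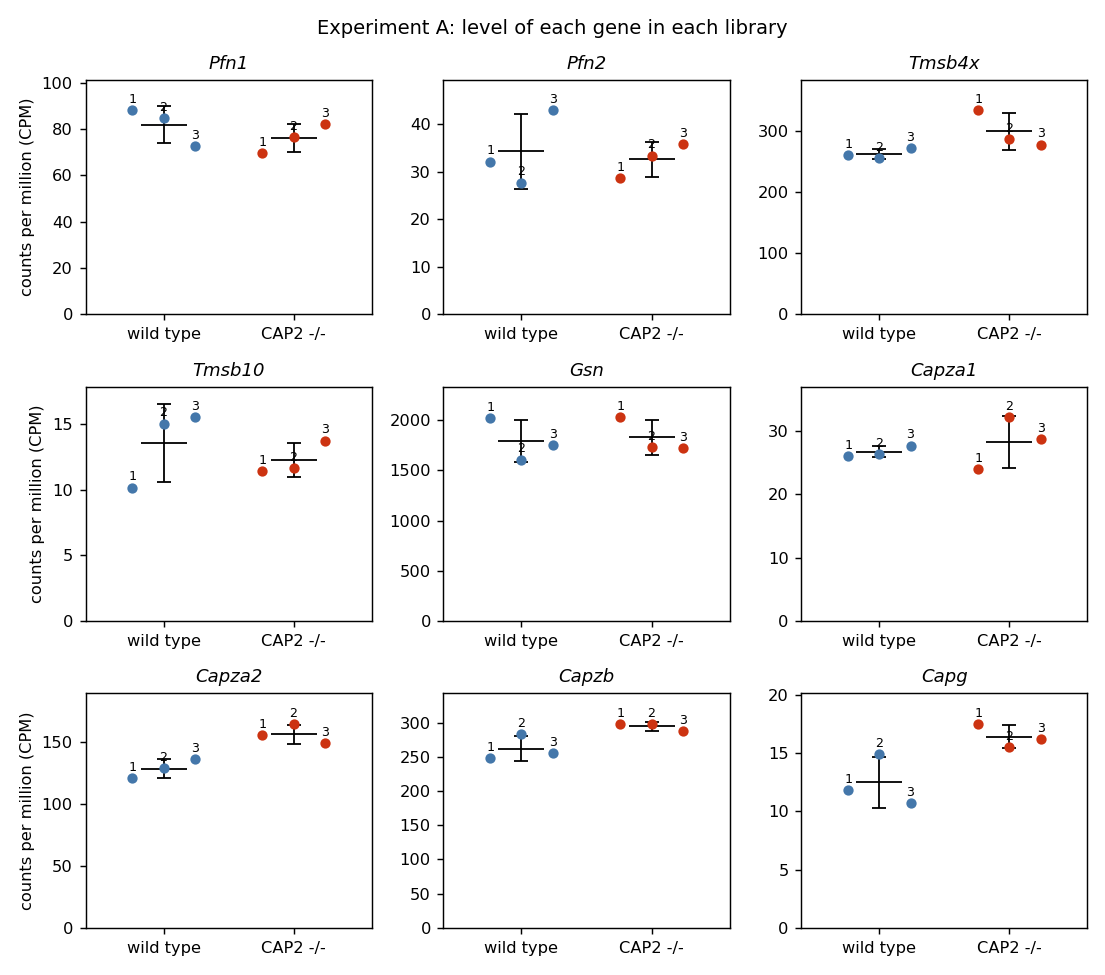
Level of each of the 9 genes in CPM (y axis) in the 3 wild-type (blue) and 3 CAP2 -/- (red) libraries of experiment A; numbers are replicate numbers, and bars are the mean ± SD. The 2 groups do not overlap for Tmsb4x, Capza2, Capzb and Capg, and cover the same range for Gsn.

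**Figure D3:**
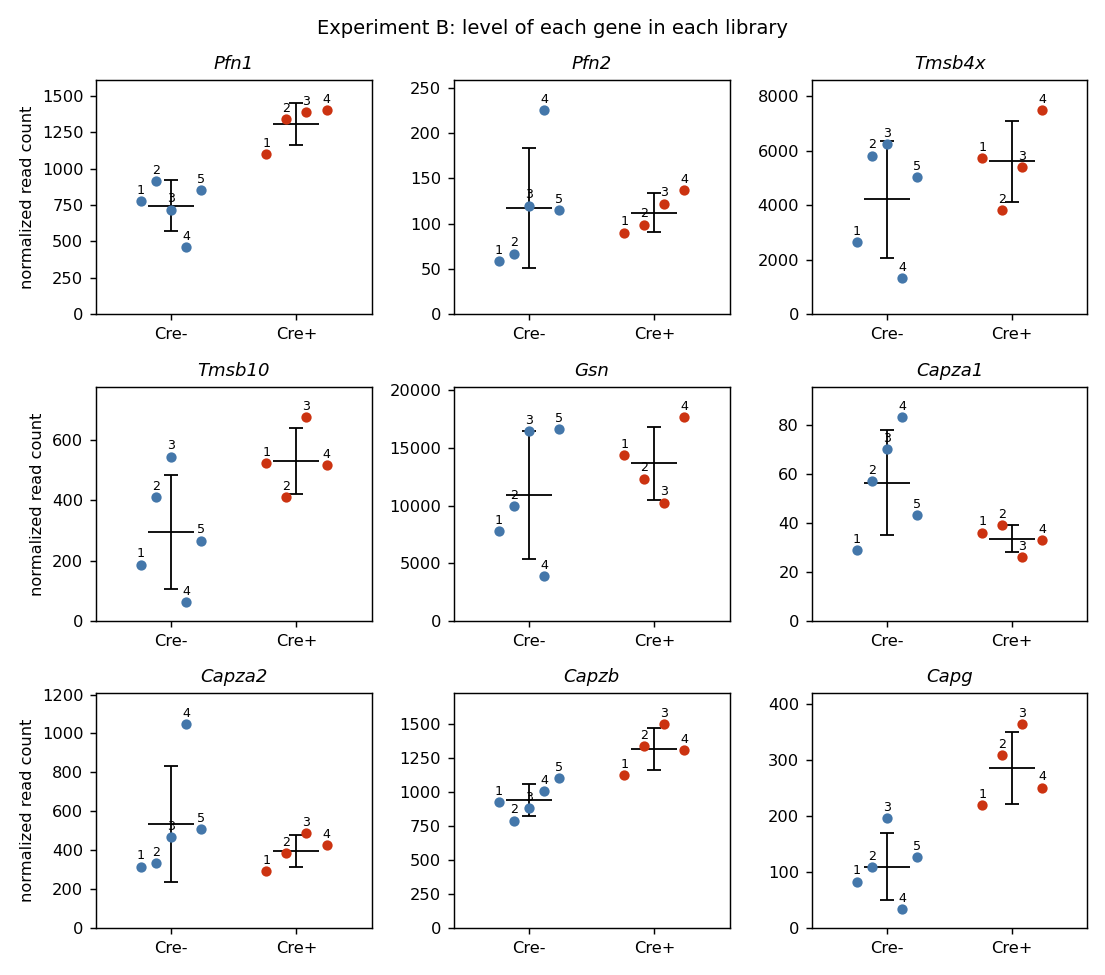
Normalized read count of each of the 9 genes (y axis) in the 5 Cre- (blue) and 4 Cre+ (red) libraries of experiment B; numbers are replicate numbers, and bars are the mean ± SD. The groups do not overlap for Pfn1, Capzb and Capg, and Cre- replicate 4 is the lowest control for Pfn1, Tmsb4x, Tmsb10, Gsn and Capg and the highest for Pfn2, Capza1 and Capza2.

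Per kilobase of exon, the members ranged widely. In wild-type hearts of experiment A the median levels in CPM per kilobase were 588 for Gsn, 190 for Tmsb4x, 77.4 for Capzb, 35.3 for Pfn1, 21.8 for Capza2, 11.8 for Tmsb10, 10.7 for Pfn2, 7.46 for Capza1 and 4.67 for Capg. Only Tmsb10 and Pfn2 were neighbours whose libraries overlapped. CAP2 -/- hearts kept the order of the first 5, and below them Pfn2, Tmsb10, Capza1 and Capg each overlapped the next.

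In experiment B the levels of Tmsb4x and Gsn, with medians of 3680 and 3150 normalized counts per kilobase, overlapped in Cre- hearts and stood above all others. Pfn1 (324), Capzb (281), Tmsb10 (209), Capza2 (79.5), Capg (43.1), Pfn2 (32.5) and Capza1 (15.1) followed, each overlapping the next. In Cre+ hearts the order was Gsn (4220), Tmsb4x (4060), Pfn1 (567), Tmsb10 (408), Capzb (400), Capg (111), Capza2 (68.6), Pfn2 (31.2) and Capza1 (9.12). There Capg stood clear of Capza2 below it, which it did not in Cre- hearts, where Capza2 ranked above it. The 2 experiments used different library kits and normalizations, so their levels are not compared.

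The balance of RNA for the capping protein subunits was followed as the summed level of Capza1 and Capza2 over that of Capzb, per kilobase. It was 0.370, 0.342 and 0.400 in wild type and 0.367, 0.410 and 0.384 in CAP2 -/- hearts, which overlapped. In experiment B it was 0.218, 0.302, 0.369, 0.659 and 0.292 in Cre- and 0.173, 0.186, 0.198 and 0.205 in Cre+ hearts. Every Cre+ library was below every Cre- library, with the nearest values 0.205 and 0.218. The ratio of Capza2 to Capza1, added after the values were seen, was 2.78 to 2.94 in wild type and 3.06 to 3.89 in CAP2 -/- hearts, without overlap, and 3.77 to 8.11 against 5.19 to 12.0 in experiment B, with overlap. The levels of whole genes include transcripts without a coding sequence, in A among them Capzb-210, Capza2-204 and Capza2-205, and Capza1 may hold reads of St7l. These ratios are a description, and no test was made on them.

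**Figure D4:**
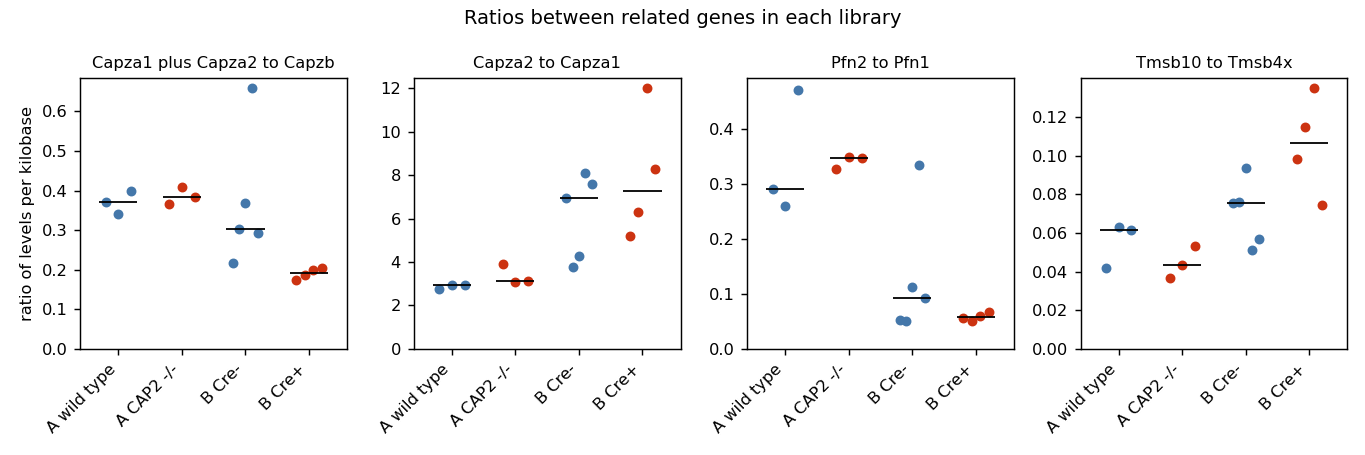
Ratios of levels per kilobase between related genes (y axis) in each library of the 4 groups (points, blue for wild type and Cre-, red for CAP2 -/- and Cre+), with the group median as a line. The alpha to beta ratio is lower in every Cre+ library (0.173 to 0.205) than in every Cre- library (0.218 to 0.659), and overlaps in experiment A.

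Among the regulators of capping protein, 9 of 10 were tested in each experiment. In experiment A, 2 of 9 passed as higher and none as lower, and in experiment B 1 of 9 was higher. Plekho1, a membrane-bound protein that binds capping protein, rose in each. It went from 45.5 ± 7.2 to 95.6 ± 8.0 CPM (SD, n = 3 and 3; log2 1.07, edgeR adjusted p = 0.000346), and from 376 ± 108 to 893 ± 162 normalized counts (SD, n = 5 and 4; log2 1.20, limma adjusted p = 0.0303). Sh3kbp1, an adaptor that carries a capping protein interaction motif, rose in experiment A from 145 ± 18 to 236 ± 21 CPM (log2 0.70, edgeR adjusted p = 0.00542). In experiment B its log2 fold change was 0.40 (limma adjusted p = 0.321). Washc2, a subunit of the WASH complex that binds capping protein, had log2 values of 0.05 in A (edgeR adjusted p = 0.947) and -0.84 in B (limma adjusted p = 0.159).

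Of 13 relatives of the members, including Pfn4, scinderin, villins, flightless and supervillin, 6 were tested in each experiment and none passed; 1 had an unadjusted p under 0.05 in each. Svil, a supervillin of the gelsolin family, came closest in A with 415 ± 24 against 562 ± 13 CPM (log2 0.44, edgeR adjusted p = 0.0556). It did not go the same way in B (log2 -0.37, limma adjusted p = 0.563). Pfn3 was listed at 0 in every library. Of 14 other filament-end genes 12 were tested in each experiment. Tmod4, a tropomodulin that caps pointed ends in skeletal muscle, fell in B from 130 ± 38 to 40 ± 21 normalized counts (log2 -1.73, limma adjusted p = 0.0418), and had a log2 value of -0.59 in A (edgeR adjusted p = 0.0620). Tmod1, the main tropomodulin of heart muscle, had log2 values of 0.25 in A (edgeR adjusted p = 0.484) and -1.30 in B (limma adjusted p = 0.167). In B its Cre- libraries spread widely, from 155 to 1160 normalized counts, against 84 to 130 in Cre+ hearts.

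Of 12 other monomer binders and severing genes, Cap2 was the only one that passed as lower in either experiment, and Dstn the only one that passed as higher. Dstn, which codes for the filament-cutting protein destrin, rose in A from 120 ± 9 to 256 ± 35 CPM (log2 1.09, edgeR adjusted p = 0.000155). In B it had a log2 value of 0.85 (limma adjusted p = 0.142). Among the actins, whose monomers the members bind, Acta1 and Acta2 rose in both experiments and Actc1 in A. Acta1, the skeletal muscle actin, had log2 values of 4.65 in A (edgeR adjusted p = 0.00349) and 5.15 in B (limma adjusted p = 0.000395). The cytoplasmic actin Actb had log2 values of -0.05 in A (edgeR adjusted p = 0.944) and 0.77 in B (limma adjusted p = 0.352). Of SRF and its 3 cofactors in the list, only Myocd, which is not an MRTF, passed, lower in A (log2 -0.74, edgeR adjusted p = 0.00627).

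The CArG box, the DNA element bound by SRF, was searched for on both strands of the RefSeq promoter windows (GRCm38.p6) that reach from 250 bases before to 50 bases after a start. It occurred in 0 of the 13 windows of the 9 members and in 1.63% of all 32851 windows. The motif TATAAA was in 0 of the 13 windows against 13.6% of all, and GGGCGG in 12 of 13, all but that of Capg, against 35.7% of all. A missing match says only that these letters do not occur in these windows.

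Several members are also abundant in cells other than cardiomyocytes, so marker genes of those cells are set beside them, with Gsn and Capg left out of the lists. Fewer cells of a type and less RNA per cell cannot be told apart in whole hearts. The summed macrophage markers were 1554, 1692, 3598, 1459 and 3962 normalized counts in the Cre- and 2919, 2968, 5725 and 3616 in the Cre+ libraries. All 8 were above 0 in fold change (median log2 0.654), and none passed the limma test; 3 had an unadjusted p under 0.05. The summed fibroblast markers were 3686 to 14710 in Cre- and 11820 to 35650 in Cre+ hearts, all 8 above 0 (median log2 0.642), and none passed, with 3 at an unadjusted p under 0.05. Cre- replicate 4, the lowest library for Capg, Pfn1, Tmsb4x, Tmsb10 and Gsn, was also the lowest in macrophage markers, by little (1459 against 1554 in Cre- replicate 1), and in endothelial, platelet and atrial markers. The summed platelet markers were 129, 485, 686, 40 and 411 in Cre- and 415, 124, 275 and 555 in Cre+ hearts. Platelet sums were lowest in the Cre- libraries that were low in Tmsb4x (replicates 1 and 4), and in Cre+ replicate 2, the lowest Cre+ library for Tmsb4x. The endothelial, erythroid, Schwann cell and fat cell sums were lowest in the same libraries of each group, so this was not particular to platelets. Of the 8 ventricular cardiomyocyte markers 3 were above 0 in experiment B (median log2 -0.674), and none passed. No macrophage or fibroblast marker was at 0 in every library. The part of these cells in the values of the members was not tested.

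In experiment A the fibroblast sum was 1011 to 1064 CPM in wild type and 1283 to 1326 CPM in CAP2 -/- hearts, without overlap, and the macrophage sum was 432.2 to 473.0 and 448.9 to 603.1 CPM, with overlap. None of the 8 markers of either list passed the edgeR test, with 1 fibroblast and 0 macrophage markers at an unadjusted p under 0.05. Of the 8 fibroblast markers 6 were above 0 (median log2 0.171), and Pdgfra (-0.12) and Col1a1 (-0.01) were below. The largest change in CPM within the fibroblast sum was that of Dcn, from 467 ± 83 to 654 ± 108 (SD, n = 3 and 3; log2 0.49). The smooth muscle and pericyte sum was lower without overlap, 1286 to 1380 CPM in wild type and 1031 to 1261 CPM in CAP2 -/- hearts, and none of its 8 markers passed. Of these, 2 were above 0 (median log2 -0.197). Abcc9 alone went from 470 ± 21 to 365 ± 37 CPM (SD, n = 3 and 3; log2 -0.36). In experiment B this sum was 4102 to 9161 in Cre- and 3794 to 6253 in Cre+ hearts, with overlap. Of the 8 markers 3 were above 0 there (median log2 -0.345), and only Abcc9 passed, as lower (log2 -1.63, limma adjusted p = 0.0477). Cnn1 went the other way, with log2 values of 0.75 in A (edgeR adjusted p = 0.427) and 2.88 in B (limma adjusted p = 0.122). The sum of the 6 atrial markers was 114.4 to 156.0 CPM in wild type against 3848 to 4587 CPM in CAP2 -/- hearts, nearly all of it Nppa, a gene that ventricles also turn on under load. Nppa was the only one of the 5 atrial markers tested that passed in A. Of the 5, 4 were above 0 (median log2 0.758), and 4 had an unadjusted p under 0.05 in the edgeR test. Bmp10 had a log2 value of 2.97 (edgeR adjusted p = 0.0612) and Myl4 of 0.76 (edgeR adjusted p = 0.0856). Myl7 had a log2 value of 0.16 and Stard10 of -0.38. In experiment B the atrial sum was 105 to 9895 in Cre- and 83870 to 175200 in Cre+ hearts, without overlap. All 6 markers were above 0 in fold change (median log2 4.609). In the limma test 0 of 6 passed, with 3 at an unadjusted p under 0.05. There the atrial myosin light chain Myl7 ranged from 16 to 3010 normalized counts in Cre- and from 105 to 17000 in Cre+ hearts. This atrial marker thus differed widely also within groups. Whether the amount of atrial tissue differed was not tested. The part of this in the values of the members was not tested.

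**Figure D5:**
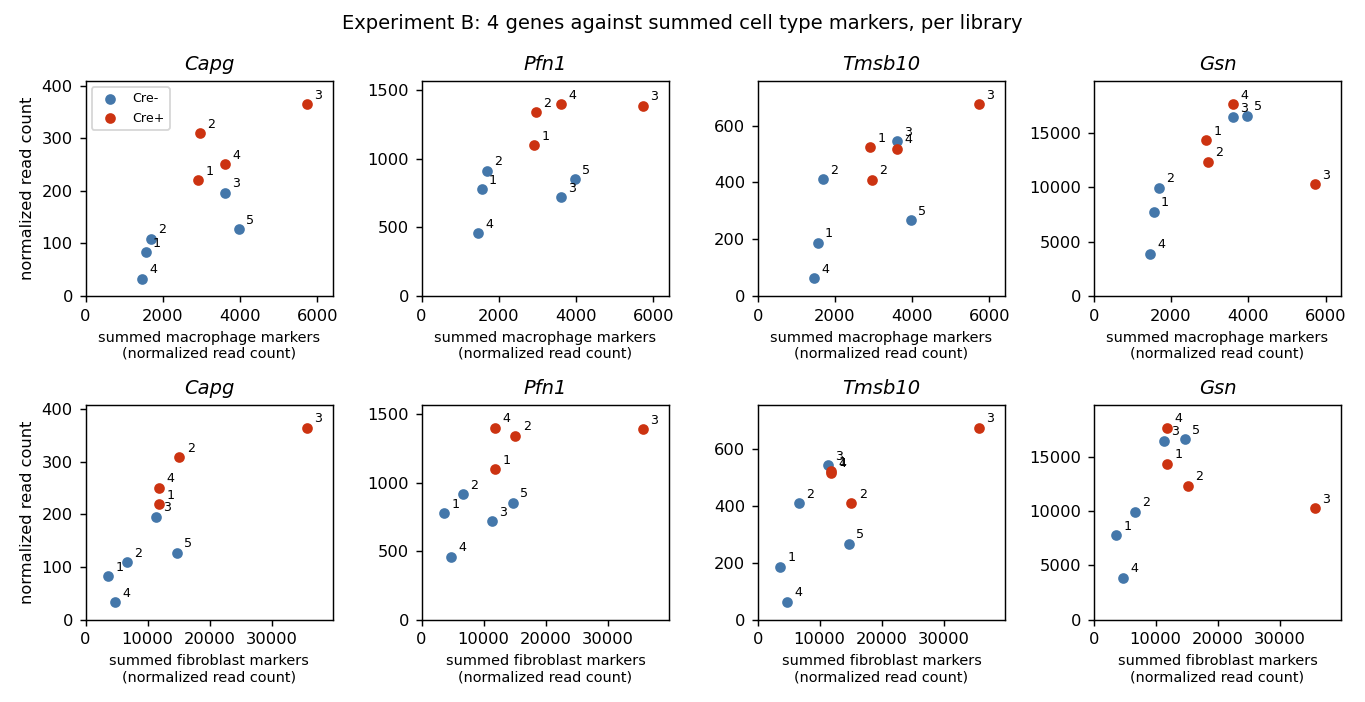
Normalized read counts of Capg, Pfn1, Tmsb10 and Gsn (y axes) against the summed macrophage (upper row) and fibroblast (lower row) markers (x axes, normalized read count) in each library of experiment B; numbers are replicate numbers. For Capg and Pfn1 the Cre+ libraries (red) lie above all Cre- libraries (blue); the macrophage and fibroblast sums of the 2 groups overlap.

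Of the 36 pairs of members, Pearson's r between log2 values over libraries was above 0 for 14 and below 0 for 21 in experiment A, and above 0 for 20 and below 0 for 16 in experiment B. In the latter, without Cre- replicate 4 it was above 0 for 32 and below 0 for 3. Pairs missing from these counts were at 0 after rounding to 2 decimals. Over the 9 libraries of experiment B, r was 0.93 between Tmsb4x and Tmsb10 (Spearman's rho 0.73), 0.93 between Tmsb10 and Capg (rho 0.73), 0.91 between Tmsb4x and Gsn (rho 0.68), 0.90 between Pfn1 and Capg (rho 0.83) and 0.89 between Pfn2 and Capza2 (rho 0.80). Capza1 went the other way from Pfn1 (r = -0.77, rho -0.68). Without Cre- replicate 4 these 6 values of r were 0.76, 0.82, 0.71, 0.79, 0.78 and -0.58, in the same order. Over the 6 libraries of experiment A, r was 0.94 between Capzb and Capg (rho 0.89), 0.82 between Capza2 and Capzb (rho 0.89) and -0.80 between Pfn1 and Tmsb4x (rho -0.77). These values share library, genotype and depth, are the extremes among 36 pairs in each experiment, and are given as a description.

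The genes whose pattern was most like those of Capg and Pfn1, the members with the smallest limma p, were looked for among 8307 genes by the mean of r over the 6 libraries of A and the 9 of B, Cre- replicate 4 included. For Capg they were Selenom (r = 0.99 in A and 0.97 in B), Rnf19a (0.96 and 0.94) and Mgp (0.90 and 0.99). For Pfn1 they were Rabac1 (0.97 and 0.93), Sars (0.91 and 0.95) and Lrp10 (0.98 and 0.87). Of these, Mgp passed the edgeR test in A (log2 0.67, adjusted p = 0.00452), and in B it had a log2 value of 2.04 (limma adjusted p = 0.0965). All these genes are the extremes among 8307, picked by r over few libraries that share genotype, and are given as a description.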

How the data were processed

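Experiment A: the authors deposited estimated counts, not always whole, for genes and exons, shares for transcripts, and their own comparison, which per the file headers holds a mean normalized signal, log2 fold changes with standard errors, a test score and p-values. Experiment B: deposited values are normalized read counts rounded to whole numbers by the authors, treated as a score because the method is not stated. The submitters' processing notes name mm10, STAR 2.6.0c and DESeq without a role; the sources used here do not give annotation, counter or strand setting. Per the labels' protocols, Ion Total RNA-Seq (A) and stranded TruSeq (B) kits were used. Of 16 labelled samples 15 had values, and the fifth Cre+ library was not analysed here.

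Rounded counts of A entered edgeR 4.0.16 (R 4.3.3; TMM, filterByExpr, robust quasi-likelihood), and CPM use TMM-adjusted totals. For B, limma 3.58.1 (robust trend) was fitted to log2(value + 1) with a term for sex, over genes whose mean was 10 or more; this scale understates changes of low values. Benjamini-Hochberg adjustment ran over all genes tested, and called means an adjusted p under 0.05. DESeq2 1.42.0 was an alternative in A. Levels per kilobase use the union of a gene's exons. Scripts were tested on simulated data.

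The members, gene lists and tests were chosen with earlier results of these data known. Named genes are all 9 members and the called genes of the lists other than cell type markers. Up to 2 genes with a small p of a list, not always the smallest, and the 3 genes most like the members with the smallest p are also named. Actb, Nppa, Myl7, Stard10, Pfn3, Bmp10, Myl4, Cnn1, Dcn, Pdgfra and Col1a1 were named after their values were seen. Markers were not all named. Krt18, in the mesothelial list, passed as higher in A (log2 1.53, edgeR adjusted p = 0.0454) and in B (log2 3.81, limma adjusted p = 0.00673). The labels do not say that libraries are separate mice, so p-values reflect only how these samples vary, which may be technical. Between replicate libraries of A the chi-square per gene was 11.5 to 31.7, above sampling noise.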

Additional observations from a re-analysis of the deposited data

Results flagged for a closer look

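Of 18 sets of values tested (9 genes in each group of experiment B), 1 held a library set far apart from the rest, and chance gives about 1 in 20. Capza2, the alpha subunit of capping protein, stood at 1049 normalized counts in Cre- replicate 4 against 315 to 508 in the other 4 Cre- libraries. Its gap to the next value was 0.737 of the group's range, above Dixon's critical value of 0.710 for 5 samples. The same library had the highest Pfn2, Capza1 and Cap2 of its group.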

How the results depend on the processing

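Over 11 alternatives in experiment A no member was called in any of 99 values (smallest adjusted p 0.325), and the sign changed in 6, all of Capza1, Gsn or Pfn2; Pfn2 was 0.12 without wild-type replicate 3. Over 18 in experiment B the sign changed in 2 of 162 values, both of Capza2, and Capg alone was called, giving 1 member, under quantile normalization (log2 1.52, adjusted p = 0.0429), with the replicate block (1.67, 0.0395) and without Cre- replicate 4 or 5; leaving out 1 library gave 0 to 1 members in B and 0 in A. Of all genes, 220 were called in A, 512 without the filter on low counts, 402 by DESeq2, and 126 to 275 without 1 library. In B 228 were called, 346 without the filter, 394 with the replicate block, 36 with the mitochondrial share as a covariate (chosen after seeing the data) and 39 to 695 without 1 library. Of the calls in B 50.4% were higher, 69.8% with TMM and 63.0% with quantile normalization. The causes were not tested. Same-numbered libraries shared little of their deviation (r of -0.17, -0.15 and -0.03 in A, and 0.13, -0.15, 0.25 and 0.08 in B). Replicates 1 and 3 of B correlated best with their own number, and the other libraries did not. With so few libraries this cannot tell whether the numbers pair the samples. The ratio of Capza1 plus Capza2 to Capzb kept its side with or without division by gene length. For ratios of single genes this division is the same factor in every library of an experiment, so it cannot change the side. Limits: with 3 against 3 and 5 against 4 libraries, intervals were wide (Tmsb10 in B 1.00- to 4.12-fold), and the depth of B is unknown; cells other than cardiomyocytes, atrial RNA and Cre itself were not separated from the loss of Cap2.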
